A study of Drosophila melanogaster with 6 samples.

Results

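The basement membrane mRNAs described here come from 9 genes of Drosophila melanogaster: Col4a1 and vkg (collagen IV), LanA, LanB1 and LanB2 (laminin), trol (perlecan), Ppn (papilin), Ndg (nidogen) and SPARC. They were taken by name from the 17101 genes joined between both experiments. The genes were chosen by their roles in the basement membrane and with their ratios over IgG in these libraries already known, so the members' levels and ratios over IgG are a description and carry no test.

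RNA immunoprecipitation followed by sequencing was done on ovary lysate with anti-Lsd1, anti-Bre1 or control anti-IgG antibody in 2 experiments, giving 6 libraries. All 6 came from wild-type Oregon-R ovaries of about 200 females per experiment taken 12 h after eclosion, and each experiment's lysate was shared out among the 3 antibodies. There was therefore 1 Lsd1, 1 Bre1 and 1 IgG library in each experiment, and no group differed in genotype, strain, age or treatment. Lsd1 is a histone demethylase and Bre1 is a ligase that ubiquitinates histone H2B, and the comparison asks which RNAs either antibody recovered beyond IgG.

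A basement membrane is the sheet of extracellular matrix that underlies epithelia. Collagen IV and laminin each form a network in it, and nidogen and the proteoglycan perlecan bind both networks. In the fly ovary this sheet wraps each egg chamber outside the follicle cells, where collagen IV is known for shaping the elongating egg. The proteins are made by follicle cells and also reach the ovary from hemocytes and the fat body.

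Depth differed widely between libraries. Outside ribosomal RNA, Lsd1 had 1581379 fragments in experiment 1 and 1619605 exon reads in experiment 2, Bre1 had 207933 and 7447852, and IgG had 1429281 and 8739562. In experiment 2 ribosomal RNA took 88.7% of the exon reads with Lsd1, 76.3% with Bre1 and 57.6% with IgG. Experiment 1 was deposited as FPKM and experiment 2 as RPKM, both levels per length relative to a library's total, so a level is compared here between libraries of the same experiment. Ratios were taken after scaling each library by the median ratio over 1028 genes, as log2(scaled level + 1), which understates changes of low genes. Of the 9 genes, 7 were fitted. Ndg did not pass the filter on low values (a level of at least 1 in at least 2 libraries), and vkg had a failed estimate for Bre1 in experiment 1, so vkg ratios for that library use the listed value and vkg is in no count of 7. Where 2 values are given for an antibody, the first is from experiment 1 and the second from experiment 2, and fragments of experiment 1 were recovered or modelled from the deposited values.

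With Bre1, Col4a1, LanA, LanB1, LanB2, trol and Ppn had a higher scaled level than with IgG in both experiments, 6 of 7 members, against 10% of the 6687 fitted genes. SPARC was the exception, with log2 ratios of -0.06 and 0.22. With Lsd1, 3 of 7 (Col4a1, LanB2 and Ppn) were higher than IgG in both experiments, against 6.43% of all fitted genes. The other 4 had opposite signs in the 2 experiments, and 0 of 7 were lower in both, against 34.7%. Col4a1, LanB2 and Ppn, 3 of 7, were thus higher in both experiments with both antibodies, against 2.29% of genes. These counts follow from the choice of genes, and nothing is read from them. The 7 fitted members were among the 1028 genes used for scaling, which had a level of at least 1 in all 6 libraries. Fitting asked for that level in only 2 libraries, so shares over 6687 genes, here and below, include many genes unlike the members in this. No member passed an adjusted p of 0.05 in limma in either comparison with IgG. Over all genes limma called 0.015% higher and 0.015% lower for Lsd1, and 0% higher and 0.0299% lower for Bre1. At an unadjusted p under 0.05, 0 of 7 members passed with limma or edgeR for either antibody. With DESeq2, 2 passed for Lsd1 (Col4a1 and Ppn) and 3 for Bre1 (Col4a1, Ppn and trol), none of them after adjustment. Over all genes an unadjusted p under 0.05 was reached by 157 of 6687 (limma), 33 of 6682 (edgeR) and 133 of 6682 (DESeq2) for Lsd1, and by 260, 23 and 78 for Bre1. Nothing is read from the members' counts here either. Nothing in the labels gives animals as separate replicates within an experiment, so the replicates are the 2 experiments. The fitted standard errors borrow most of their weight from other genes of like abundance, with 2 residual against 119 prior degrees of freedom.

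Col4a1 had the highest level per length of the 9 genes in 5 of 6 libraries. Col4a1 encodes the alpha1 chain of collagen IV and lies at 2L:5029609-5037279 on the plus strand of dm6, with 6165 bases of exon. Its level was 22.9 FPKM and 38.5 RPKM with Lsd1 in experiments 1 and 2, 21.8 FPKM and 75.5 RPKM with Bre1, and 13.6 FPKM and 45.9 RPKM with IgG. Both antibodies were therefore above IgG in experiment 1, and in experiment 2 Bre1 was above IgG and Lsd1 below it. Behind these levels were 1637 fragments and 11272 exon reads with Lsd1, 1061 and 34750 with Bre1, and 1100 and 13707 with IgG. After scaling, the level became 12.4 and 104 with Lsd1, 57.8 and 60.2 with Bre1, and 9.24 and 23.2 with IgG, so that both antibodies lay above IgG in each experiment. The log2 ratio over IgG was 0.39 and 2.11 for Lsd1 and 2.52 and 1.34 for Bre1. For experiment 2 a number of detected transcripts was also deposited, which for Col4a1 was 0 with Lsd1 and 3 with Bre1 and with IgG. In that Lsd1 library it was also 0 for vkg, LanB2, Ppn, SPARC and Ndg, 1 for LanA and LanB1, and 3 for trol. What set this number was not tested. Fitted over both experiments, Col4a1 was higher than IgG by 1.25 ± 0.98 log2 units with Lsd1 and 1.93 ± 0.98 with Bre1 (SE, n = 2 libraries each), and with Lsd1 the difference between experiments exceeded the fitted value itself.

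The gene vkg encodes the alpha2 chain of collagen IV and lies head to head with Col4a1 at 2L:5012144-5028191 on the minus strand, with 1417 bases between them. Its level was 20.5 FPKM and 19.1 RPKM with Lsd1, 52.2 RPKM with Bre1 in experiment 2, and 7.99 FPKM and 29.8 RPKM with IgG. In the Bre1 library of experiment 1 the estimate failed and the listed value was 13.5 FPKM. As for Col4a1, Lsd1 was above IgG in experiment 1 and below it in experiment 2 before scaling. The scaled log2 ratios over IgG were 0.91 and 1.71 with Lsd1 and 2.52 (from the listed value) and 1.41 with Bre1.

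The chains of collagen IV are encoded by neighbouring genes, and their levels can be set against each other. Per length, Col4a1 was 1.12 and 2.01 times vkg with Lsd1, 1.61 and 1.45 times with Bre1, and 1.71 and 1.54 times with IgG. Over the 4 log2 ratios, vkg with its listed value lay at a Euclidean distance of 0.667 from Col4a1. Among the fitted genes outside the list, the nearest to Col4a1 were dec-1 at a distance of 1.49, snRNA:U2:14B and Moca-cyp at 1.53 each, CG4119 at 1.55 and eIF2beta at 1.61, against a median distance of 4.55 over other genes. The gene dec-1 encodes an eggshell protein made by follicle cells, and snRNA:U2:14B belongs to a family of near-identical copies whose reads can be divided among them. Among the fitted members, the nearest was Ppn at 2.09.

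**Figure D1:**
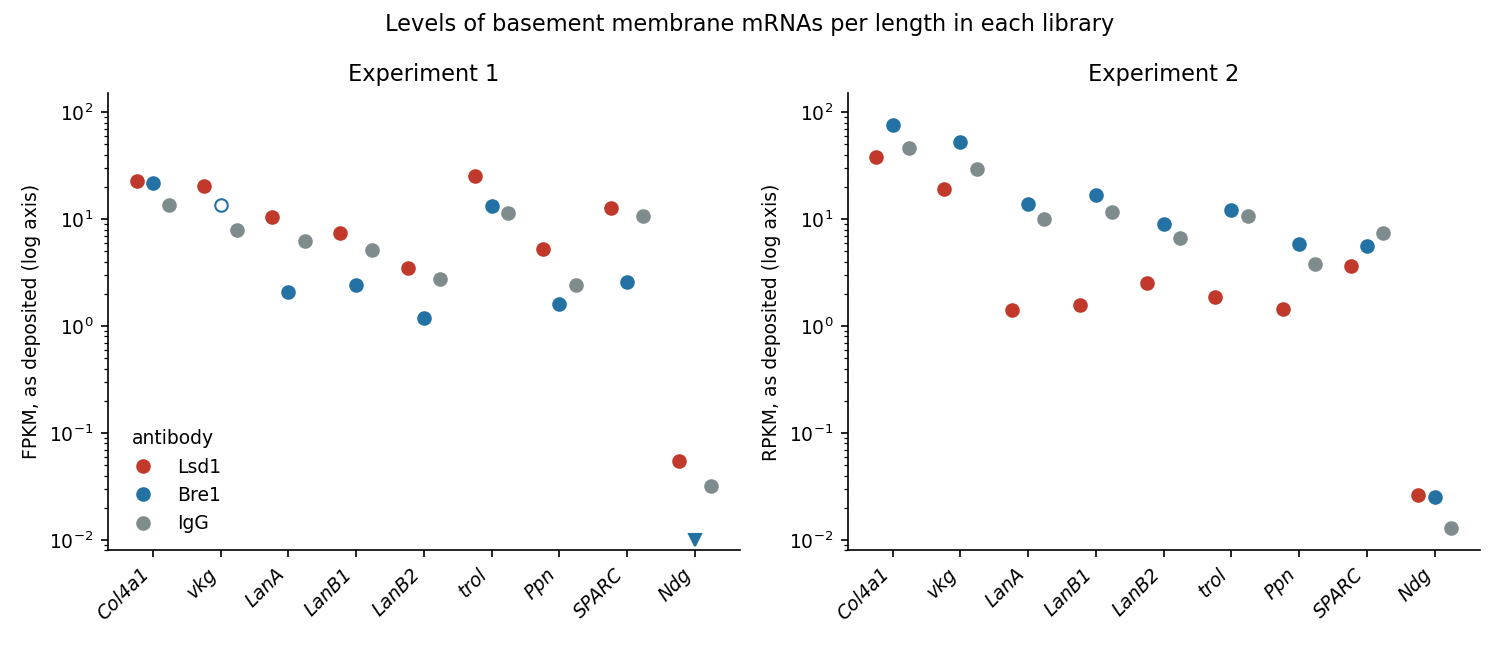
Level of each gene as deposited (log axis; FPKM in experiment 1, RPKM in experiment 2), 1 point per library, with Lsd1 in red, Bre1 in blue and IgG in grey. The open point is vkg with a failed estimate and the triangle is Ndg listed at 0; in experiment 2 every Lsd1 point but Ndg lies below its IgG point.

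Laminin followed the same order of antibodies in all of its chains before scaling. LanA encodes the alpha chain of laminin and lies at 3L:6203831-6218022 on the minus strand, with 11690 exon bases. Its level was 10.4 FPKM and 1.41 RPKM with Lsd1, 2.07 FPKM and 14.0 RPKM with Bre1, and 6.27 FPKM and 9.95 RPKM with IgG. The antibodies changed places, with Lsd1 above and Bre1 below IgG in experiment 1 and the reverse in experiment 2. The scaled log2 ratios over IgG were 0.34 and -0.33 with Lsd1 and 0.31 and 1.01 with Bre1.

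LanB1 encodes the beta chain, at 2L:7811438-7820771 on the plus strand. Its level was 7.41 FPKM and 1.56 RPKM with Lsd1, 2.42 FPKM and 16.7 RPKM with Bre1, and 5.17 FPKM and 11.6 RPKM with IgG. After scaling its ratios lay close to those of LanA, with opposite signs in the 2 experiments for Lsd1 and above IgG in both for Bre1. Its scaled log2 ratios were 0.15 and -0.39 with Lsd1 and 0.72 and 1.06 with Bre1.

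LanB2 encodes the gamma chain, at 3L:9614914-9623980 on the plus strand, and had the lowest level of the laminin chains in experiment 1. Its level was 3.51 FPKM and 2.53 RPKM with Lsd1, 1.20 FPKM and 9.01 RPKM with Bre1, and 2.75 FPKM and 6.72 RPKM with IgG. Unlike the other laminin chains, it was above IgG after scaling in both experiments with either antibody, although its first Lsd1 ratio was close to 0. The scaled log2 ratios were 0.02 and 0.83 for Lsd1 and 0.55 and 0.89 for Bre1. In the Bre1 library of experiment 1 its value rests on 60 fragments, against 219 with IgG.

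Laminin is assembled from 1 chain of each kind, and the chains' levels per length can be set against LanA within a library. LanB1 was 0.709 and 1.11 times LanA with Lsd1, 1.17 and 1.19 times with Bre1, and 0.825 and 1.17 times with IgG. LanB2 was 0.336 and 1.80 times LanA with Lsd1, 0.581 and 0.642 times with Bre1, and 0.439 and 0.676 times with IgG. The Lsd1 library of experiment 2 was the single library in which LanB2 exceeded LanA, from 712 exon reads for LanB2 and 781 for LanA.

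The gene trol encodes perlecan, a heparan sulphate proteoglycan. It spans X:2470460-2545410 on the minus strand, with 20284 exon bases and 22 listed transcripts. Its level was 25.2 FPKM and 1.88 RPKM with Lsd1, 13.3 FPKM and 12.3 RPKM with Bre1, and 11.5 FPKM and 10.8 RPKM with IgG. In experiment 1 its Lsd1 level was the highest of all 9 genes in that library, and in experiment 2 it was far below both others. The scaled log2 ratios over IgG were 0.73 and -0.09 with Lsd1 and 2.05 and 0.75 with Bre1. Experiment 1 divides by the length of each transcript and experiment 2 by all exon bases of the gene, which for a gene with this many transcripts makes the levels of the experiments less comparable still.

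Ppn encodes papilin, a proteoglycan-like matrix glycoprotein, at 3R:28520665-28540324 on the minus strand. Its level was 5.22 FPKM and 1.44 RPKM with Lsd1, 1.61 FPKM and 5.89 RPKM with Bre1, and 2.40 FPKM and 3.82 RPKM with IgG. After scaling, its ratios varied least between experiments among the 7 fitted genes, at 0.54 and 0.74 log2 units with Lsd1 and 1.00 and 0.96 with Bre1. Both experiments and both antibodies therefore gave the same direction. The fitted values were 0.64 ± 0.72 with Lsd1 and 0.98 ± 0.72 with Bre1, in log2 units (SE, n = 2 libraries each).

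SPARC encodes a collagen-binding matrix glycoprotein, at 3R:26869238-26871995 on the minus strand, and with 1201 exon bases is by far the shortest of the genes. Its level was 12.7 FPKM and 3.66 RPKM with Lsd1, 2.59 FPKM and 5.67 RPKM with Bre1, and 10.6 FPKM and 7.36 RPKM with IgG. Bre1 was below IgG in both experiments before scaling. The scaled log2 ratios were -0.07 and 1.21 with Lsd1 and -0.06 and 0.22 with Bre1. Its counts were the smallest of the fitted genes, with 148 fragments and 209 reads with Lsd1, 21 and 508 with Bre1, and 140 and 428 with IgG.

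Ndg encodes nidogen, which links laminin to collagen IV, and was close to undetected in these immunoprecipitation libraries. It had 3 fragments and 6 reads with Lsd1, 0 and 9 with Bre1, and 2 and 3 with IgG, and no ratio is given. Its level was at most 0.0545 in any library, while each of the other genes exceeded 1 in every library.

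**Figure D2:**
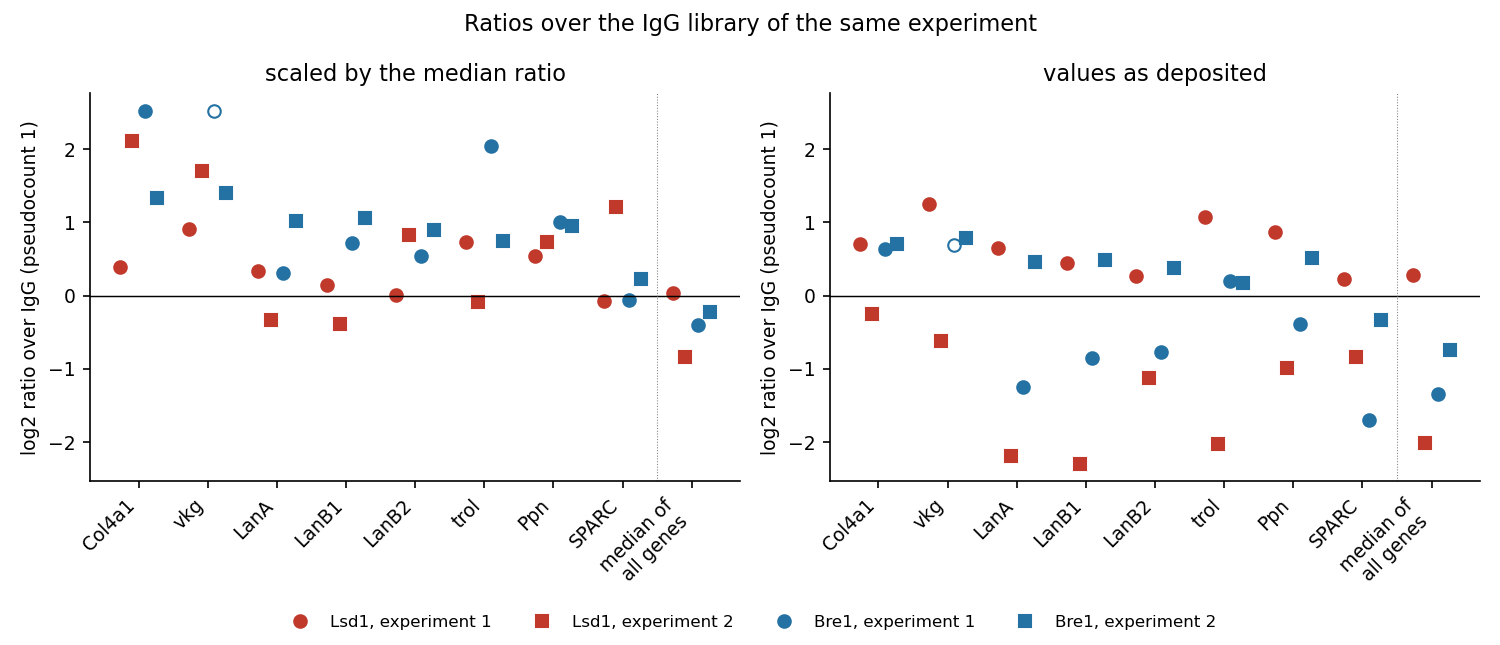
Log2 ratio over the IgG library of the same experiment, after scaling (left) and from the values as deposited (right), with Lsd1 in red, Bre1 in blue, circles for experiment 1 and squares for experiment 2. The last position is the median of all 6687 fitted genes; the open point is vkg with a failed estimate. After scaling Col4a1 lies at 0.39 and 2.11 with Lsd1 and 2.52 and 1.34 with Bre1, while as deposited its second Lsd1 ratio is -0.25.

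Set against all fitted genes, the median of the 7 members' log2 ratios was 0.34 in the first Lsd1 experiment and 0.74 in the second, where the median of all genes was 0.03 and -0.84. With Bre1 the members' medians were 0.72 and 0.96, where those of all genes were -0.40 and -0.22. In the second experiment, which had the deeper Bre1 library, all 7 members were above 0 with Bre1, against 25.4% of all fitted genes. The members ran from 0.22 for SPARC to 1.34 for Col4a1. Of the 7 members, 6 lay between percentile 99.4 (trol) and 99.9 (Col4a1) of all fitted genes, SPARC being at 90.5. In the first Bre1 experiment they spread from percentile 65.7 for SPARC to 99.7 for Col4a1. In the second Lsd1 experiment they ran from 70.7 for LanB1 to 98.9 for Col4a1. In the first Lsd1 experiment they ran from 34.9 for SPARC to 99.0 for trol. The background of all 6687 fitted genes holds many with a level under 1 in some library, unlike the members.

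The scaling decides on which side of IgG many members fell. As deposited, the members' median log2 ratio was 0.65 and -1.13 for Lsd1 and -0.77 and 0.46 for Bre1, where the median of all genes was 0.28 and -2.02 for Lsd1 and -1.34 and -0.74 for Bre1. On that scale 0 of 7 members were higher than IgG in both experiments with Lsd1, against 0.628% of genes, and 2 of 7 with Bre1 (Col4a1 and trol), against 0.209%. In the second Bre1 experiment the as-deposited ratio was above 0 for 6 of 7 members and for 2.66% of all genes. Quantile normalization gave 5 of 7 with Lsd1 and 7 of 7 with Bre1, against 24.6% and 31.4% of genes. Fragments and reads outside ribosomal RNA give another view, in which a library's total of them takes the place of that factor. The 9 genes took 0.662% and 1.35% of them with Lsd1, 1.86% and 1.44% with Bre1, and 0.424% and 0.537% with IgG. The 95% Clopper-Pearson intervals, which cover counting error only, were 0.649 to 0.675% and 1.33 to 1.36% for Lsd1, 1.80 to 1.91% and 1.44 to 1.45% for Bre1, and 0.414 to 0.435% and 0.532 to 0.542% for IgG. As the genes were chosen with their ratios known, these shares too are a description. In experiment 1 the total leaves out the 31 genes with a failed estimate, vkg among them, while the 9 genes include it. With Bre1 the listed value of vkg gave 745 of the 3859 fragments of the 9 genes. Collagen IV made up 31.1% and 78.7% of the members' reads with Lsd1, 46.8% and 55.9% with Bre1, and 29.8% and 49.2% with IgG. The 7 genes outside collagen IV took 0.456% and 0.286% of the fragments and reads outside ribosomal RNA with Lsd1, 0.987% and 0.637% with Bre1, and 0.298% and 0.273% with IgG.

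Exon length moved with the ratio over IgG in several libraries, and these genes, SPARC apart, are long. Over 6496 protein-coding genes the Spearman correlation of the log2 ratio with exon length was 0.42 and -0.00 for Lsd1 and 0.52 and 0.17 for Bre1, as a description of genes that share their libraries. In the first Bre1 experiment the median log2 ratio was -1.26 for genes under 1000 bases and 0.75 for those of at least 10000 bases. The second Bre1 experiment had a much flatter course, with -0.39 and -0.12 for the same classes.

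Each member was therefore also set beside the fitted protein-coding genes of like exon length (0.8 to 1.25 times its own). In the first Bre1 experiment Col4a1 and trol stayed at percentiles 99.5 and 100 of their like-length genes (621 and 21 genes). LanA was at 27.8, below the like-length median of 0.69, and the other 4 ran from 70.4 to 82.9. In the second Bre1 experiment all 7 lay at or above percentile 95.6, and Col4a1, LanA and trol were at 100. In the second Lsd1 experiment Col4a1 was at 100, LanB2 at 98.2, SPARC at 95.6 and Ppn at 95.5, and LanA, LanB1 and trol ran from 63.9 to 76.2. In the first Lsd1 experiment no member was above percentile 90.5 and LanB2 was at 17.9. With the trend on length removed from each ratio, 5 of 7 were higher than IgG in both experiments with Lsd1, against 22.9% of genes, and 6 of 7 with Bre1, against 26.6%. LanA was the exception for Bre1, at -0.38 and 1.16. The part of length in the ratios was not tested beyond these values.

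**Figure D3:**
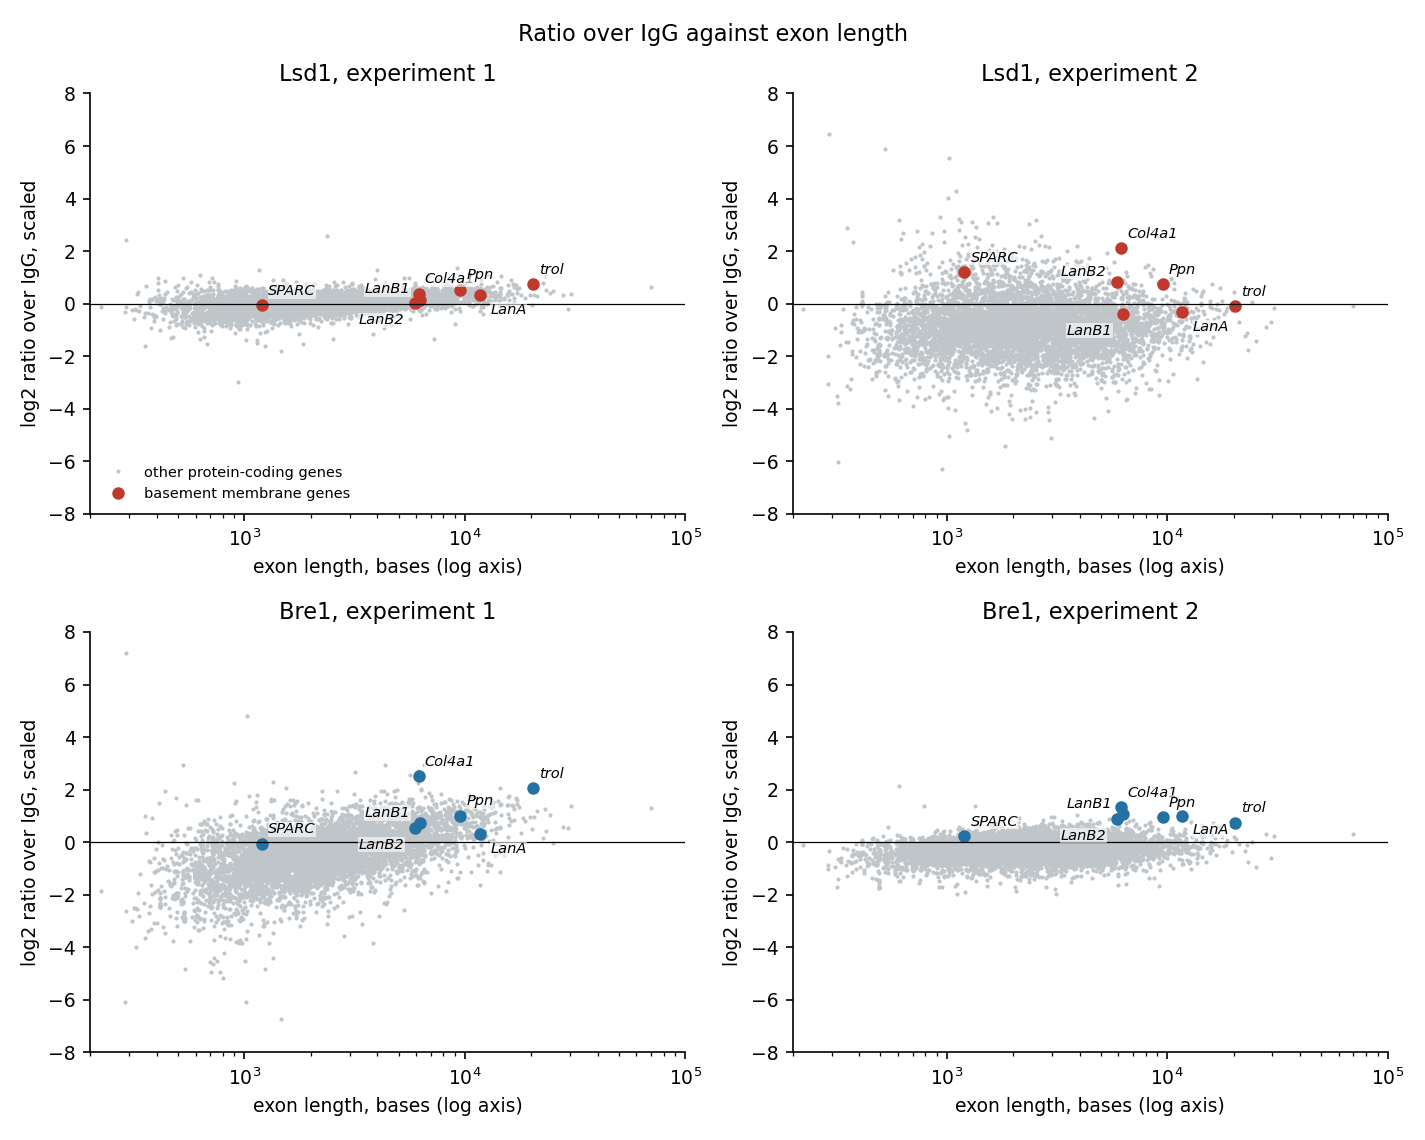
Scaled log2 ratio over IgG against exon length (log axis) for fitted protein-coding genes, 1 panel per antibody and experiment, with other genes in grey and the 7 fitted members coloured and named. In the first Bre1 experiment the grey cloud slopes upward with length and LanA lies within it, while in the second all members but SPARC lie along its upper edge.

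The 2 antibodies were also compared with each other, where the IgG library of an experiment cancels. The scaled Lsd1 level was below the Bre1 level in both experiments for 4 of 7 members, LanB1, LanB2, trol and Ppn, against 20% of all genes, and above it in both for 0 of 7, against 9.88%. The log2 difference, Lsd1 minus Bre1, was -0.57 and -1.45 for LanB1 and -1.31 and -0.83 for trol. Col4a1 changed sign, at -2.14 and 0.78. None of the 7 passed an adjusted p of 0.05 for this difference in limma, edgeR or DESeq2, and 0 passed an unadjusted p of 0.05 in any of them. Over all genes 81 of 6687 (limma), 46 of 6682 (edgeR) and 125 of 6682 (DESeq2) reached that unadjusted p. Over all genes limma called 0.0748% higher with Lsd1 and 0% lower.

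The tables of experiment 2 give junction and intron reads for each gene, which separate spliced RNA from RNA that holds introns. Reads across exon-exon junctions were 6.64% of the members' exon reads with Lsd1, 11.5% with Bre1 and 13.0% with IgG. Over other protein-coding genes the shares were 10.2% with Lsd1, 14.1% with Bre1 and 14.7% with IgG, so the order of the antibodies was the same. Over single genes with at least 100 reads, the median was 6.12% for the 8 members measured and 5.37% for other genes with Lsd1, 11.9% and 13.3% with Bre1, and 12.6% and 14.0% with IgG, so with Lsd1 the sum and the median placed the members on opposite sides of other genes. Col4a1 had 5.54% junction reads with Lsd1 (95% Clopper-Pearson interval 5.12 to 5.97%), 9.12% with Bre1 (8.82 to 9.43%) and 11.1% with IgG (10.5 to 11.6%). Ppn had 3.83% with Lsd1 (2.49 to 5.60%), against 14.7% with Bre1 and 15.0% with IgG. For LanA the shares were 9.86% with Lsd1, 8.41% with Bre1 and 9.68% with IgG, and the Lsd1 interval of 7.86 to 12.2% covered both others. For trol, at 19.7% with Lsd1, 22.5% with Bre1 and 21.6% with IgG, the Lsd1 and IgG intervals overlapped.

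For trol, intron reads were 1.09% of the gene's reads with Lsd1 (0.669 to 1.68%), 6.50% with Bre1 (6.16 to 6.85%) and 23.0% with IgG (22.3 to 23.7%). For vkg no intron read was seen beside 5902 exon reads with Lsd1, an upper limit of 0.0625%. The vkg share was 0.244% with Bre1 and 4.40% with IgG. Over all 9 genes intron reads were 0.110% with Lsd1, 1.40% with Bre1 and 7.43% with IgG. Most of the members' intron reads came from trol, with 20, 1297 and 3160, where no other member had more than 3, 62 and 432. Over other protein-coding genes intron reads were 3.80% with Lsd1, 1.84% with Bre1 and 7.76% with IgG. The members' summed share was thus below that of other genes in each library. A summed share can rest on few genes, and over single genes with at least 100 reads the median was 0% for the 8 members measured and 0% for 1765 other genes with Lsd1, 0.498% and 0.647% with Bre1, and 1.70% and 0.628% with IgG. The libraries do not record strand, so intron reads can also come from RNA on the other strand. At least 99.8% of the exon reads of each of the 9 genes were unique in every library of experiment 2. Within these genes the only annotated overlaps were mir-4955 in trol, with 0 reads, and CG34222 in Ndg, with at most 1 read.

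**Figure D4:**
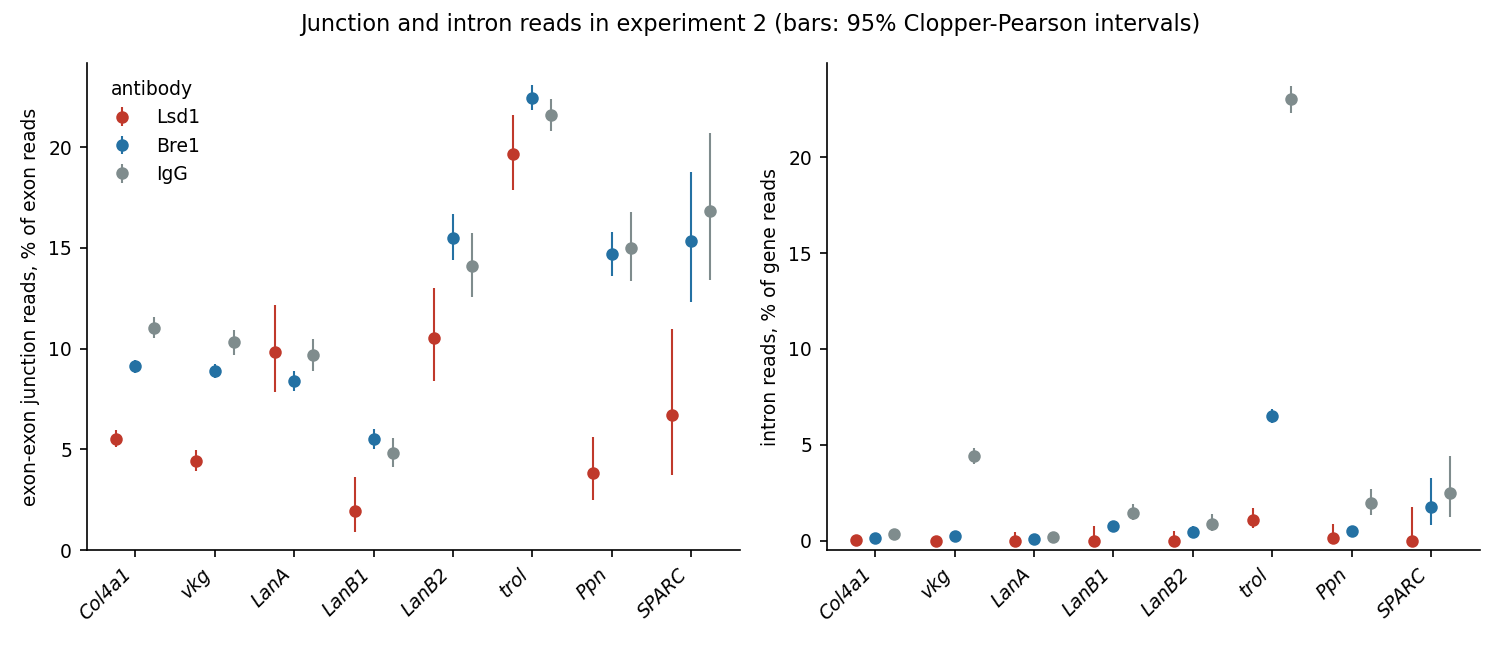
Share of exon reads that cross an exon-exon junction (left) and share of a gene's reads in introns (right) in experiment 2, with Lsd1 in red, Bre1 in blue and IgG in grey; bars are 95% Clopper-Pearson intervals. The intron share of trol is 1.09% with Lsd1, 6.50% with Bre1 and 23.0% with IgG.

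Transcript estimates of experiment 1 divide each gene's level over its annotated transcripts. For Col4a1, transcript FBtr0079001, the shortest of 3 at 5635 bases, took 65.1% of the level with Lsd1, 94.4% with Bre1 and 50.6% with IgG. For LanB1, FBtr0079490 took 76.5% with Lsd1 and 93.1% with IgG, while in the Bre1 library the whole level was assigned to FBtr0079491. SPARC showed the same kind of change, with FBtr0085094 holding the level with Lsd1 and IgG and FBtr0334309 holding it with Bre1, there from 21 fragments in all. Ppn kept its main transcript FBtr0300337 at 52.7% with Lsd1, 54.1% with Bre1 and 51.6% with IgG. Of the 22 trol transcripts, 10 had at least 0.1 FPKM with Lsd1, 9 with Bre1 and 7 with IgG. These shares come from 1 library per antibody and have no replicate check.

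The wider set of matrix genes was taken from lists of the machinery that makes, binds and remodels a basement membrane. None of these genes passed an adjusted p of 0.05 in limma in any comparison. Of 10 genes for making and secreting collagen and matrix, all 10 were fitted, with median log2 ratios over IgG of 0.00 and -1.19 with Lsd1 and -0.04 and -0.06 with Bre1. With Bre1, 2 of the 10 were higher than IgG in both experiments and 2 lower in both, against 10% and 52.4% of all genes. PH4alphaEFB, a prolyl hydroxylase of collagen, had ratios of -0.06 and -0.18 with Lsd1 and 0.26 and 0.68 with Bre1. Plod, the lysyl hydroxylase, had 0.03 and -1.20 with Lsd1 and -0.73 and 0.56 with Bre1. Tango1, which loads collagen for export from the endoplasmic reticulum, had 0.14 and -1.05 with Lsd1 and 0.91 and 0.24 with Bre1. Pdi, a protein disulphide isomerase, had -0.40 and 0.71 with Lsd1 and -1.34 and 0.19 with Bre1. The values of these genes thus differed in sign between experiments for at least 1 antibody, apart from PH4alphaEFB.

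Receptors and their partners were measured for 10 of 16 genes. Their medians were 0.11 and -1.16 with Lsd1 and 0.36 and -0.12 with Bre1, and 0 of 10 were higher than IgG in both experiments with Lsd1, against 6.43% of all genes, and 3 of 10 with Bre1, against 10%. The integrin beta subunit mys had ratios of 0.09 and -1.03 with Lsd1 and 0.19 and -0.42 with Bre1. The integrin alpha subunit mew had 0.08 and -1.07 with Lsd1 and 0.53 and 0.19 with Bre1. The laminin and perlecan receptor Dg had -0.05 and -1.39 with Lsd1 and 0.52 and 0.08 with Bre1. Ilk, an integrin-bound adaptor, had 0.27 and -1.59 with Lsd1 and -0.60 and -0.19 with Bre1, and the alpha subunit if was below the filter. Each of these 4 fitted receptor genes was below IgG with Lsd1 in experiment 2, as was the median gene.

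Of 9 modifiers 3 were fitted, and Pxn, Mmp1 and Mmp2 stayed below the filter with levels of at most 0.750. AdamTS-A, a matrix metalloprotease gene, was fitted with ratios of 0.28 and -0.04 with Lsd1 and 1.16 and 0.24 with Bre1. The protease inhibitor Timp had ratios of -0.40 and -1.16 with Lsd1 and -1.36 and 0.02 with Bre1. The remaining fitted modifier, stl, had 0.12 and 0.58 with Lsd1 and 0.36 and 0.49 with Bre1. With Lsd1, 1 of 3 was higher than IgG in both experiments and 1 lower in both, against 6.43% and 34.7% of all genes. With Bre1, 2 of 3 were higher in both and 0 lower in both, against 10% and 52.4%. Of 7 other matrix proteins 3 were fitted. The glypican dlp, at 3.82 FPKM and 0.587 RPKM with Lsd1, 0.786 FPKM and 3.54 RPKM with Bre1, and 2.69 FPKM and 8.64 RPKM with IgG, had ratios of 0.12 and -1.05 with Lsd1 and 0.13 and -0.49 with Bre1. The glypican dally had 0.28 and -0.68 with Lsd1 and -0.49 and -0.01 with Bre1. These glypicans, stl and AdamTS-A are list genes outside the rule for named genes and were added after their values were seen. The genes wb, a laminin alpha chain, Tig and Glt were below the filter. Mp, the collagen XV/XVIII gene, had ratios of -0.04 and 0.27 with Lsd1 and 1.72 and 0.17 with Bre1, the first Bre1 value resting on 63 fragments. The fitted genes nearest to the median member over the 4 ratios were Nup205, bel, ND-75, Nup107 and CG14215, at distances of 0.495 to 0.588, against a median distance of 2.49, and none of them was on a matrix list.

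Marker lists of the cells that make or touch this matrix were read in the same libraries. Between the experiments, fewer cells of a type and less RNA per cell cannot be told apart. Within an experiment the antibodies shared a lysate, so marker levels there compare the RNA recovered and not numbers of cells. All 10 follicle cell markers were matched and 8 fitted, and their summed level was 29.9 and 11.1 with Lsd1, 10.5 and 24.3 with Bre1, and 23.8 and 35.3 with IgG, in FPKM and RPKM as deposited. The 12 germline markers summed to 420 and 30.4 with Lsd1, 35.4 and 251 with Bre1, and 255 and 679 with IgG. Follicle cell markers had median scaled log2 ratios of -0.04 and 0.21 with Lsd1 and 0.55 and 0.03 with Bre1, and germline markers 0.29 and -1.74 with Lsd1 and -0.45 and -0.32 with Bre1. The germline median was thus below the follicle cell median in the second Lsd1 and in both Bre1 libraries, and above it in the first Lsd1 library. None of either list passed an adjusted p of 0.05 in limma.

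The 11 hemocyte markers summed to 7.42 and 2.27 with Lsd1, 0.798 and 4.45 with Bre1, and 5.85 and 10.6 with IgG, as deposited. With Bre1 the sum was below IgG in both experiments, where only 1.54% and 2.66% of all fitted genes were above IgG on that scale. Most of these sums came from crq, a scavenger receptor gene, with 4.62 and 0.0813 with Lsd1, 0.130 and 3.02 with Bre1, and up to 8.34 with IgG, and from srp, a GATA factor gene, at up to 2.05. In the second Lsd1 library He gave 1.88 of the 2.27. Hml was at most 0.273 in any library, and crq and srp were the 2 of 11 that were fitted. These markers were named after their values were seen. Of the 11, 5 and 6 were at 0 with Lsd1, 7 and 1 with Bre1, and 3 and 0 with IgG. These libraries differed in depth, with 207933 fragments outside ribosomal RNA for the first Bre1 library and 8739562 exon reads for the second IgG library. The part of depth in these counts was not tested. The 7 fat body markers summed to at most 0.873 in any library and 0 of them were fitted. The 18 markers of the muscle sheath around the ovary summed to 270 and 98.4 with Lsd1, 50.9 and 106 with Bre1, and 305 and 145 with IgG, and their median scaled log2 ratios were -0.26 and 0.51 with Lsd1 and -1.10 and 0.08 with Bre1. The part of any cell type in the members' ratios was not tested.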

How the data were processed

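The 6 RNA immunoprecipitation libraries of fly ovaries comprised 2 per antibody, paired by experiment. Per the submitters' processing notes, TopHat, Bowtie2 2.0.6.0, SAMtools 0.1.18.0 and Cufflinks were used with build dm6, with no role or order given. Libraries were made without selection for polyadenylated RNA by a kit that does not mark strand, per the labels' protocols. For experiment 1 the authors deposited FPKM per transcript with confidence limits, and for experiment 2 RPKM and read counts per gene, per the file headers, so experiment and quantification cannot be told apart. Transcript FPKM was summed per gene. Genes were joined by FlyBase identifier (17021) or symbol (80), and trol was joined by symbol. Of 17101 genes, 31 had a failed estimate, vkg among them, and 17070 had 6 values. The filter, a value of 1 or more in at least 2 libraries, left 6687 genes to fit.

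Each library was divided by its median ratio over 1028 genes with a level of at least 1 in all 6 libraries. Then log2(value + 1) was fitted with limma 3.58.1 in R 4.3.3, with antibody and experiment (the replicate block) as terms. Benjamini-Hochberg adjustment was made over all fitted genes, and the fit had 2 residual and 119 prior degrees of freedom. The labels say that each lysate was divided among the antibodies. As a check of this pairing, same-experiment deviations correlated across genes at 0.47 (IgG with Lsd1), 0.51 (IgG with Bre1) and 0.11 (Lsd1 with Bre1), which the different quantification can also give. Fragments of experiment 1 were recovered from the confidence limits or modelled. Among low values 84.2% (Lsd1), 80.5% (Bre1) and 83.1% (IgG) were whole within 0.05. These fragments and the deposited counts entered edgeR 4.0.16 and DESeq2 1.42.0 as alternatives. Scripts were tested on simulated data. Like-length genes had 0.8 to 1.25 times the member's exon length.

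The members and lists were chosen with earlier results of these data known. Named genes were the 9 members, fixed matrix genes, any list gene past an adjusted p of 0.05, and the 5 genes nearest to Col4a1 and to the median member. No sequences were used here.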

Additional observations from a re-analysis of the deposited data

How the results depend on the processing

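No member passed an adjusted p of 0.05 in limma, edgeR or DESeq2 under any setting run. The lowest adjusted p was 0.107 for Lsd1 and 0.215 for Bre1, both for Col4a1 with a library left out. For Bre1, Col4a1 (0.67 to 2.95), Ppn (0.07 to 1.78) and trol (0.19 to 2.04) stayed above IgG on the log2 scale under all 17 alternatives. For Lsd1 only Col4a1 did (0.09 to 2.53). Some of the 17 cannot change a member's fitted value. These are no filter, a minimum of 5, no replicate block, listed values kept, and leaving out a library of the antibody not compared. The median of the 7 fitted members' fitted values, 0.42 for Lsd1 and 0.89 for Bre1, became -0.43 and -0.18 with values as deposited, 1.32 and 1.42 with edgeR, and 1.36 and 1.37 with DESeq2. It became 0.77 for Lsd1 with the length trend removed, and 1.26 and 0.48 for Bre1 with quantile normalization and a pseudocount of 5. Leaving out 1 library gave 0.75 to 0.94 for Bre1 and 0.18 to 0.75 for Lsd1, with 0.75 without the first Lsd1 library, 0.23 without the second, 0.68 without the first IgG library and 0.18 without the second.

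Counts of called genes were small and unstable. They were 2 (Lsd1 over IgG), 2 (Bre1 over IgG) and 5 (Lsd1 over Bre1), and 0 in each with values as deposited, quantile normalization, a pseudocount of 0.1, no filter, the length trend removed, or edgeR, where 33 and 23 genes passed an unadjusted p of 0.05 for Lsd1 and Bre1 over IgG. A pseudocount of 5 gave 15, 1 and 15, and DESeq2 gave 11, 1 and 8. A minimum of 5 gave 5 for Bre1 over IgG. Without the replicate block, that is without pairing by experiment, the counts were 0, 0 and 0. The members' medians were the same 0.42 and 0.89, which this balanced design fixes in advance. Leaving out 1 library gave 0 to 1805 for Lsd1 over IgG, 0 to 44 for Bre1 over IgG and 0 to 39 for Lsd1 over Bre1. The 1805 came without the first Lsd1 library, leaving 1 Lsd1 library, which is assumed to vary like the others. The 44 came without the second Bre1 library (43 without the second Lsd1 library) and the 39 without the first Lsd1 library. The cause of these shifts was not tested. Keeping listed values where an estimate failed was added after seeing the data and changed neither median.

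Depth limits values from the first Bre1 library, with 21 fragments for SPARC, 60 for LanB2 and 0 for Ndg. With 2 libraries per antibody and a quantification that differs between experiments, no member's difference passed the test, and intervals on shares cover counting error only.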
